A study of Canis lupus familiaris with 12 samples.

Results

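The interferon response genes examined here are 47 listed genes that cells induce when interferon or viral RNA is sensed, together with genes that process antigens for MHC class I. The list was chosen by the measured level of *IDO1*, the enzyme that turns tryptophan into kynurenine, because its mRNA was higher in the KO lines. It asks whether the other interferon-inducible genes were higher too. Of the 47 listed genes, 42 have a value among the 13672 genes with deposited library-size-normalized counts (CPM), and *IFI6*, *IFIT1*, *IRF7*, *XAF1*, and *ZBP1* were not analysed here. Requiring a level above 1 CPM in 3 or more libraries left 12650 genes, 41 of them members, of which the 40 other than *IDO1* were tested. *PSMB8* was the member below the filter. The higher level of *IDO1* chose the list, so its values are given as a description, with no test.

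RNASeq was done on untreated MDCKII cells, an epithelial line from dog kidney, in 4 genotypes with 3 libraries each. WT cells were compared with cells lacking cingulin (CGN-KO, clone 1G8), cells lacking paracingulin (CGNL1-KO, clone 22), and cells lacking both junction proteins (CGN/CGNL1 double-KO, clone 21D3). Values of a genotype are given in the order of libraries 1, 2, and 3, with the double-KO library whose column carries no replicate number (called unnumbered) before double-KO 2 and 3. Each KO genotype was 1 clonal CRISPR line, so the genotype and the clone cannot be told apart. Libraries of a genotype are not labelled as separate cultures, so p-values measure only the spread between these libraries, which may be technical.

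Reads recovered over the 13672 genes with deposited values were between 16837532 and 30086076 per library. CGN was at 47.0 to 56.5 CPM in CGN-KO and 39.7 to 45.3 CPM in double-KO cells, against 198 to 233 CPM in WT and CGNL1-KO cells. CGNL1 was at 1.11 to 3.02 CPM in the lines that lack it, at 7.74 to 12.3 CPM in WT, and at 5.04 to 6.92 CPM in CGN-KO cells, below the WT range. All 9 epithelial markers examined had values, with summed levels of 7254 to 8060 CPM. Of 11 leukocyte markers 3 had values (*CD68*, *CD14*, *CORO1A*), with sums of 12.4 to 14.8 CPM in WT, 16.7 to 19.8 in CGN-KO, 17.5 to 20.1 in CGNL1-KO, and 12.8 to 15.1 in double-KO cells. The fibroblast marker *PDGFRA* was at most 11.1 CPM and the endothelial marker *KDR* at most 2.41 CPM, as 1 of 6 and 1 of 4 listed markers with values. The part of these markers in the results was not tested.

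Interferons act on neighbouring cells through receptors coupled to JAK kinases, which phosphorylate STAT proteins. With IRF9 these bind the promoters of a large set of interferon-stimulated genes, while interferon gamma acts in part through the transcription factor IRF1. Their products sense viral RNA, block steps of viral replication, and raise the display of peptides on MHC class I. Many of these genes are also kept at a low constitutive level in epithelial cells. *IDO1*, *CXCL10*, and the antigen processing genes are textbook targets of interferon gamma.

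*IDO1* was highest in CGNL1-KO cells. Its level was 112, 94.7, and 125 CPM in the WT libraries and 218, 131, and 151 CPM in the CGN-KO libraries. It reached 634, 288, and 453 CPM in the CGNL1-KO libraries and 212, 244, and 220 CPM in the double-KO libraries. Every KO library was above every WT library, and the CGN-KO and double-KO ranges overlapped. The log2 difference from WT was 1.98 in CGNL1-KO, 1.03 in double-KO, and 0.57 in CGN-KO cells, on the log2(CPM + 1) scale that is used for all differences below.

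Most other members were not higher together with *IDO1*. In each KO line more of the 40 tested members fell than rose, and the double-KO line had the most falls. Against WT, 16 of 40 members were lower and 1 was higher in CGN-KO cells (limma, adjusted p below 0.05). In the whole data 7.87% of genes were called lower and 11.2% higher in this comparison. In CGNL1-KO cells 6 members were lower and 2 higher, where 3.49% of all genes were lower and 6.81% higher. In double-KO cells 28 members were lower and 1 higher, where 11.5% of all genes were lower and 14.8% higher. The median log2 difference of the members was −0.19, −0.13, and −0.44 in CGN-KO, CGNL1-KO, and double-KO cells, and for all genes tested it was 0.00 in each. Of the 40 members, 31, 25, and 37 lay below 0 in these comparisons. The 3 comparisons share the WT libraries and are not independent of each other. In bulk RNA, fewer cells that express a gene and less RNA per cell cannot be told apart.

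**Figure D1:**
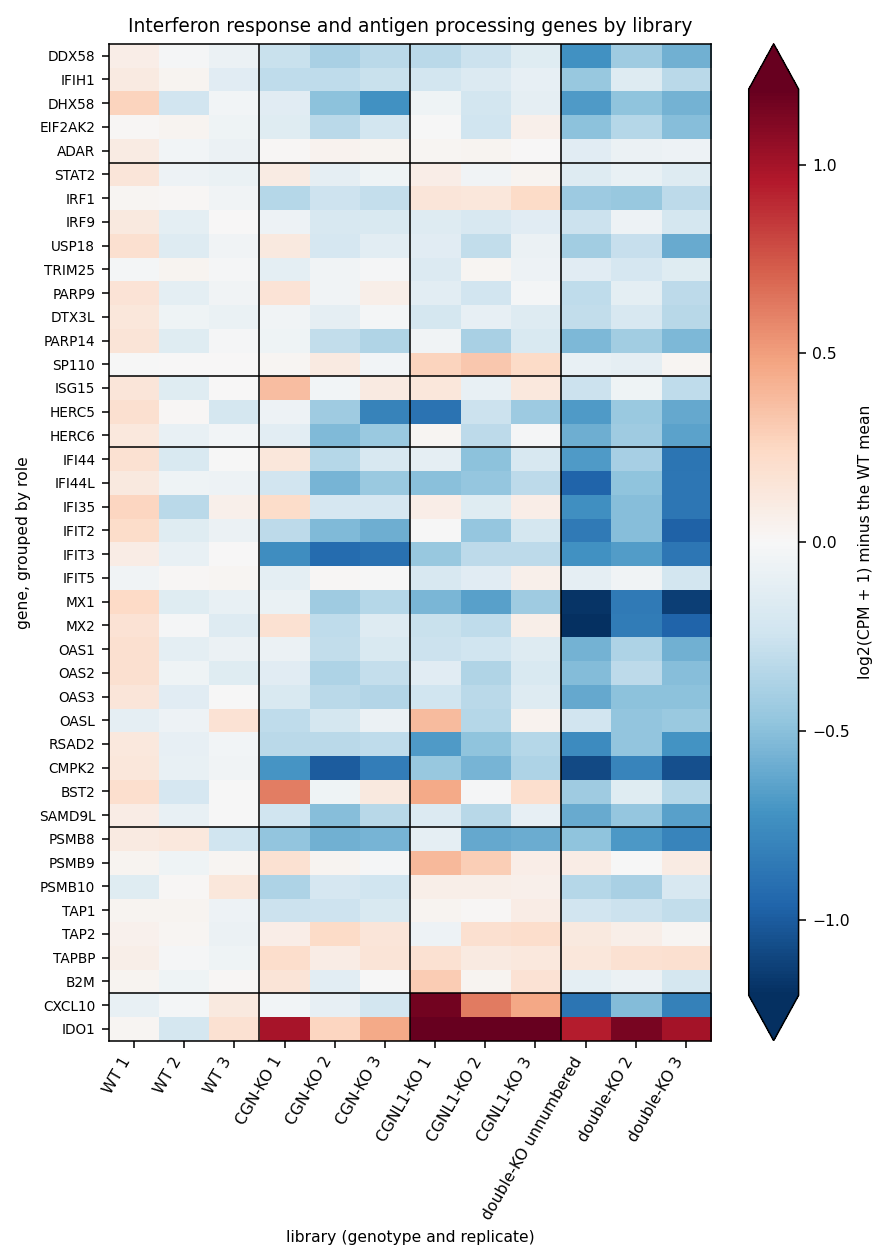
Level of the 42 members with values in each of the 12 libraries, as log2(CPM + 1) minus the mean of the 3 WT libraries, with lines between genotypes and between roles (from the top: sensors, transcription factors and regulators, ISG15 system, antiviral effectors, antigen processing, chemokine and enzyme). Colours saturate at the ends of the scale. The 3 double-KO columns are blue over most antiviral effectors, while *IDO1* in the last row is red in all 9 KO columns.

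The 3 double-KO libraries behaved alike. The median member was at −0.47, −0.38, and −0.50 from the WT mean (log2) in the unnumbered library, library 2, and library 3, with 37, 38, and 36 of the 40 members below that mean. The medians were −0.08, −0.25, and −0.20 in the CGN-KO libraries and −0.08, −0.23, and −0.04 in the CGNL1-KO libraries. The WT libraries themselves were at 0.12, −0.06, and −0.04, so the median of CGNL1-KO 3 lay within the WT spread and those of CGNL1-KO 1 and CGN-KO 1 just below it.

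**Figure D2:**
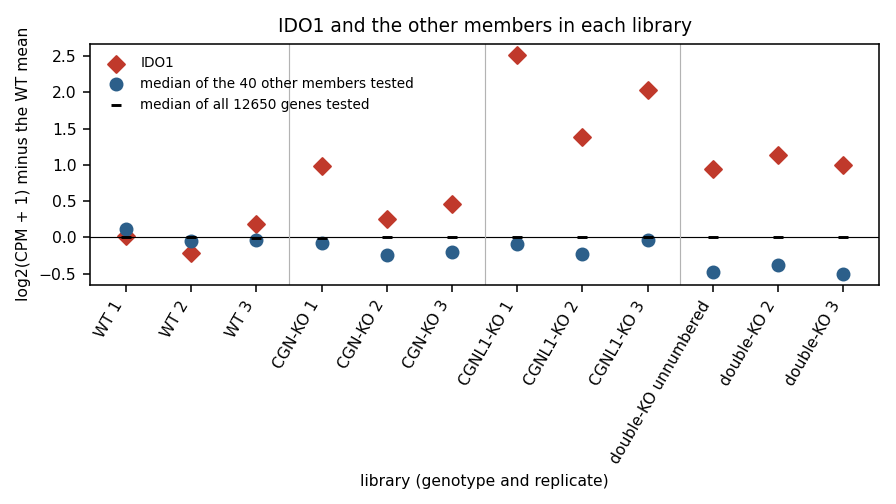
Difference of each library from the WT mean, in log2(CPM + 1), for *IDO1* (diamonds), the median of the 40 other members tested (circles), and the median of all 12650 genes tested (dashes). *IDO1* is above 0 in all 9 KO libraries, from 0.25 to 2.52, while the member median is below 0 in all 9, from −0.50 to −0.04.

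In some libraries most members lay on 1 side of the group mean. WT 1 was above its group mean for 34 of 40 members, CGN-KO 1 for 29, CGNL1-KO 3 for 33, and double-KO 2 for 34. The matching counts over all genes tested were not made. In WT 1 the median of all genes tested was 0.003 from the WT mean, against 0.12 for the members. The count of CGN-KO members called against WT depended on single libraries. It was 17 with all libraries, 8 without WT 1, 8 without CGN-KO 3, and 11 without CGN-KO 2. The double-KO count against WT was 29 and stayed between 25 and 30 when any 1 library was left out. The CGNL1-KO count was 8 and ranged from 6 to 9, and with the replicate number as a block it was 15, with 11 lower and 4 higher.

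Among all 4 genotypes, 29 of the 40 members differed (limma F test, adjusted p below 0.05), where 29.9% of all genes tested did. WT had the highest mean of the 4 genotypes for 25 of 40 members, and for 31.1% of all genes. Double-KO had the lowest mean for 36 of 40 members, and for 28.3% of all genes. CGNL1-KO was lowest for 0 members and for 18.6% of all genes, and highest for 9 of 40 members and for 18.8% of all genes.

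**Figure D3:**
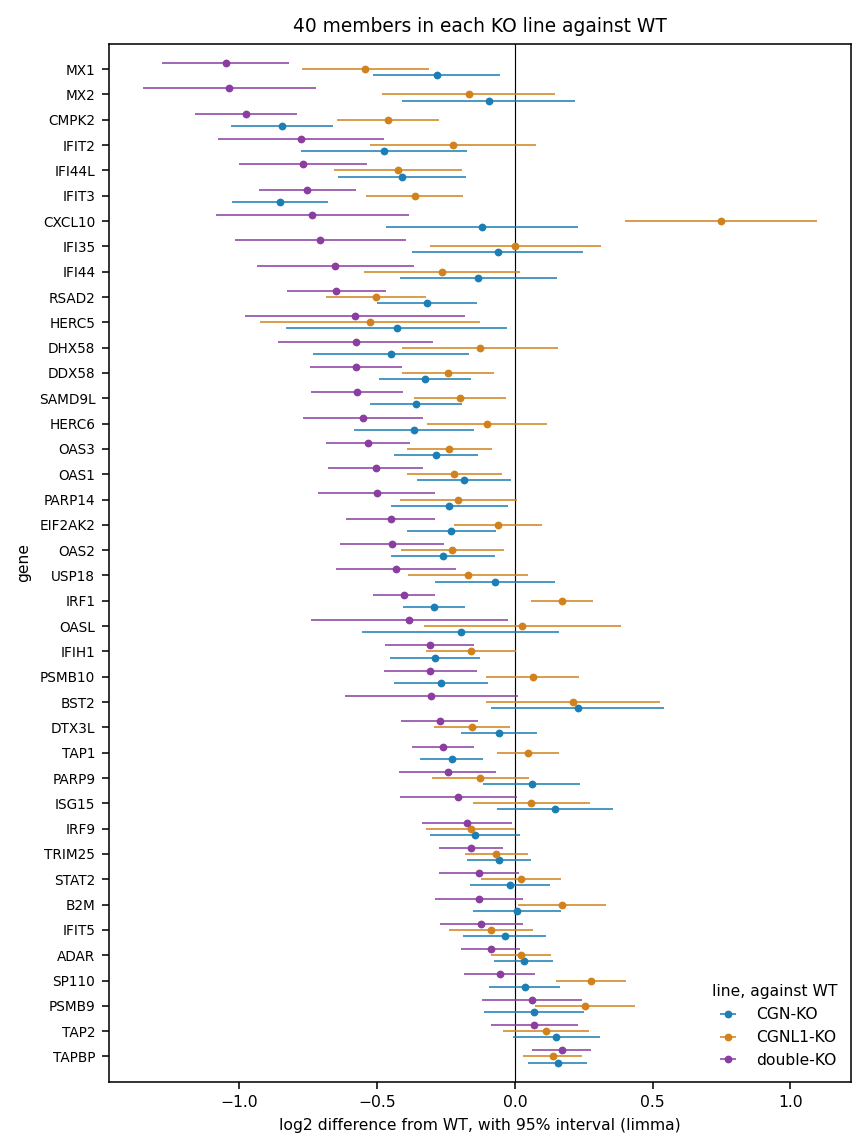
Log2 difference from WT with its 95% interval from limma for the 40 members tested, in CGN-KO (blue), CGNL1-KO (orange), and double-KO cells (purple), ordered by the double-KO difference. *MX1*, *MX2*, and *CMPK2* have the lowest double-KO values, *CXCL10* is the member with opposite signs in CGNL1-KO and double-KO cells far from 0, and *TAPBP* at the bottom is above 0 in all 3 lines.

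Most RNA sensors fell in the CGN-KO and double-KO lines. *DDX58* (RIG-I), *IFIH1* (MDA5), and *DHX58* (LGP2) are RNA helicases that start interferon production or tune it, and *EIF2AK2* (PKR) is a kinase that halts translation on double-stranded RNA. All 4 were lower in the CGN-KO and double-KO lines, and 0 passed the test in CGNL1-KO cells. *DDX58* was at 44.8, 41.8, and 40.3 CPM in WT, 34.8, 32.05, and 33.6 in CGN-KO, and 33.6, 35.1, and 38.2 CPM in CGNL1-KO libraries, with 25.2, 31.2, and 28.0 CPM in the double-KO libraries. Each KO line lay below all WT libraries. Its log2 difference from WT was −0.33 ± 0.08 (SE, n = 3 libraries per genotype, limma adjusted p = 0.00793) in CGN-KO and −0.58 ± 0.08 (adjusted p = 5.81e-05) in double-KO cells. In CGNL1-KO cells it was −0.24 (adjusted p = 0.065). *ADAR*, which edits double-stranded RNA, lay between −0.09 and 0.03 in the 3 lines and was not called.

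Of the 9 transcription factors and regulators, 6 fell in double-KO cells, 1 in CGN-KO cells, and 0 in CGNL1-KO cells. *IRF1*, the factor that drives many interferon gamma targets, had the clearest difference between the lines in this group. It was at 142, 142, and 136 CPM in WT and at 110, 117, and 114 CPM in CGN-KO libraries. It was at 155, 154, and 164 CPM in CGNL1-KO and at 103, 102, and 112 CPM in double-KO libraries. The CGN-KO and double-KO libraries lay below all WT libraries, and the CGNL1-KO libraries above them. *IRF1* fell by 0.30 ± 0.05 (SE, limma adjusted p = 0.00087) in CGN-KO and by 0.40 ± 0.05 (adjusted p = 4.07e-05) in double-KO cells on the log2 scale. The CGNL1-KO difference of 0.17 did not pass the test (adjusted p = 0.0535).

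*STAT2* and *IRF9*, which are parts of the interferon-activated factor, were not called in any line. Their log2 differences lay between −0.13 and 0.02 and between −0.18 and −0.15. The regulators lower in double-KO cells and called in neither single KO were *USP18*, which removes ISG15 and restrains receptor signalling, *TRIM25*, a ubiquitin ligase acting on RIG-I, the partners *PARP9* and *DTX3L*, and *PARP14*, an ADP-ribosyltransferase. Their double-KO differences ranged from −0.50 (*PARP14*) to −0.16 (*TRIM25*). *SP110*, a nuclear body protein, was the regulator that rose in CGNL1-KO cells, from 38.9 to 39.1 CPM in WT to 46.1 to 49.2 CPM, by 0.28 ± 0.06 (limma adjusted p = 0.00702).

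The ISG15 system tags proteins with the ubiquitin-like ISG15. *ISG15* itself was at 273 to 335 CPM in WT, 295 to 391 in CGN-KO, 285 to 333 in CGNL1-KO, and 245 to 292 CPM in double-KO libraries, with overlapping ranges, and was called in no line against WT. *HERC6*, the ISG15 ligase of mice, fell by 0.37 in CGN-KO (limma adjusted p = 0.0192) and by 0.55 in double-KO cells (adjusted p = 0.000861). *HERC5*, its neighbour, was at 1.34 to 3.95 CPM in all libraries and was lower in double-KO cells by 0.58 (adjusted p = 0.0318).

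Of the 16 antiviral effectors, 13 were lower in double-KO cells, 8 in CGN-KO cells, and 6 in CGNL1-KO cells, and 0 were higher in any line. In all 3 lines 5 members fell, and all were effectors: *CMPK2*, *IFIT3*, *RSAD2*, *OAS3*, and *IFI44L*. The share of all genes lower in all 3 lines was not counted, and the comparisons share the WT libraries. Whether 5 members is more than that share was therefore not tested.

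*CMPK2*, a mitochondrial nucleotide kinase, was 286, 244, and 252 CPM in WT, 159, 129, and 146 in CGN-KO, and 189, 177, and 201 CPM in CGNL1-KO libraries, with 122, 150, and 125 CPM in the double-KO libraries. No KO library reached the WT range. The log2 difference from WT was −0.85 ± 0.09 (SE, limma adjusted p = 3.76e-06) for CGN-KO, −0.46 ± 0.09 (adjusted p = 0.00236) for CGNL1-KO, and −0.98 ± 0.09 (adjusted p = 7.06e-07) for double-KO cells. *RSAD2* (viperin), which makes a nucleotide that ends viral RNA chains, lies next to *CMPK2* in the dog genome. It was at 388, 334, and 349 CPM in WT, 284, 284, and 289 in CGN-KO, and 222, 254, and 281 CPM in CGNL1-KO libraries, with 211, 257, and 216 CPM in the double-KO libraries. All 9 KO libraries lay below WT. *RSAD2* fell by 0.32 ± 0.09 (adjusted p = 0.015) in CGN-KO cells, by 0.50 ± 0.09 (adjusted p = 0.000975) in CGNL1-KO cells, and by 0.65 ± 0.09 (adjusted p = 4.07e-05) in double-KO cells, and its CGN-KO call was lost without WT 1.

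*IFIT3*, a partner of the IFIT proteins that bind viral RNA, was lower in all 3 lines. Its level was 28.9, 25.6, and 27.2 CPM in WT and 15.9, 13.9, and 14.2 CPM in CGN-KO libraries. In CGNL1-KO it was 19.6, 21.7, and 21.7 CPM, and in double-KO 16.0, 16.8, and 14.5 CPM. The WT libraries were above all others, and the CGNL1-KO libraries were above all CGN-KO and double-KO libraries. The log2 differences from WT were −0.85 ± 0.08 (limma adjusted p = 1.99e-06), −0.36 ± 0.08 (adjusted p = 0.00898), and −0.75 ± 0.08 (adjusted p = 6.06e-06) in CGN-KO, CGNL1-KO, and double-KO cells. Between double-KO and CGN-KO the difference was 0.10, with a 95% interval from −0.08 to 0.27. Its neighbour *IFIT2* fell in CGN-KO (−0.48) and double-KO cells (−0.78), and *IFIT5* lay between −0.12 and −0.04 without a call.

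*MX1* and *MX2* encode dynamin-like GTPases that trap viral nucleocapsids, and of the 40 tested members they were the 2 called past a 2-fold difference from WT in this fit. Both calls were in double-KO cells, where 0.64% of all genes were called at least 2-fold lower. With the replicate block, without WT 1, or without the unnumbered double-KO library, 0 members were past 2-fold. *MX1* was at 326, 249, and 260 CPM in WT, 261, 205, and 218 in CGN-KO, and 188, 175, and 205 CPM in CGNL1-KO libraries, with 122, 153, and 126 CPM in the double-KO libraries. The double-KO libraries lay below every other library, and the CGN-KO range overlapped WT. *MX1* fell by 1.05 ± 0.11 (SE, limma adjusted p = 3.38e-06) in double-KO and by 0.54 ± 0.11 (adjusted p = 0.0036) in CGNL1-KO cells. In CGN-KO cells the difference was −0.28 (adjusted p = 0.0794). *MX2* was at 14.8, 13.0, and 11.6 CPM in WT, 14.9, 10.4, and 11.6 in CGN-KO, and 10.7, 10.4, and 13.8 CPM in CGNL1-KO libraries, with 4.65, 6.88, and 6.25 CPM in the double-KO libraries. Only the double-KO libraries stood apart, with a log2 difference from WT of −1.04 ± 0.15 (adjusted p = 8.38e-05). The single KO differences of *MX2* were −0.10 (adjusted p = 0.7) and −0.17 (adjusted p = 0.561), with 95% intervals from −0.41 to 0.22 and from −0.48 to 0.15.

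**Figure D4:**
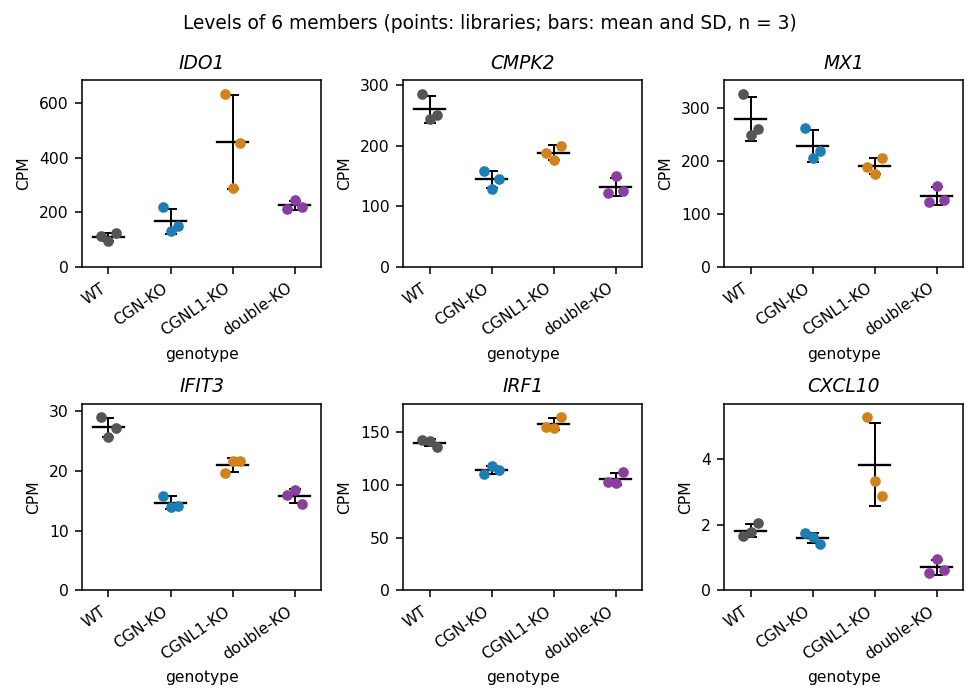
CPM of *IDO1*, *CMPK2*, *MX1*, *IFIT3*, *IRF1*, and *CXCL10* in each library (points) with the mean and SD of the 3 libraries per genotype (bars). *IDO1* is highest in CGNL1-KO cells, *CMPK2* and *IFIT3* are highest in WT, *MX1* is lowest in double-KO cells, and *IRF1* and *CXCL10* are highest in CGNL1-KO and lowest in double-KO cells.

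The oligoadenylate synthetases make the messenger that activates RNase L on double-stranded RNA. *OAS1*, *OAS3*, and *OAS2* lie side by side in the genome, and each fell in double-KO cells, by 0.51, 0.53, and 0.45. *OAS3* was at 163, 134, and 147 CPM in WT, 129, 118, and 115 in CGN-KO, and 125, 117, and 133 CPM in CGNL1-KO libraries, with 95.7, 105, and 104 CPM in the double-KO libraries. The WT libraries were highest and the double-KO libraries lowest, without overlap with the single KO lines. *OAS3* fell by 0.29 ± 0.07 (limma adjusted p = 0.0105) in CGN-KO and by 0.24 ± 0.07 (adjusted p = 0.0464) in CGNL1-KO cells, and the CGNL1-KO call was lost in 9 of 12 fits that each left out 1 library and with only the genotypes compared. The CGN-KO call was lost without WT 1 and without CGN-KO 3. *OASL* was at 0.74 to 2.15 CPM and was called in no line.

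*IFI44L*, an interferon-induced protein that limits viral replication, was at 58.7, 52.2, and 51.9 CPM in WT, 46.1, 36.5, and 39.6 in CGN-KO, and 37.96, 39.1, and 43.4 CPM in CGNL1-KO libraries, with 27.4, 38.5, and 29.3 CPM in the double-KO libraries. All KO libraries were below WT, and the 3 KO ranges overlapped. The log2 differences were −0.41 ± 0.11 (limma adjusted p = 0.0148), −0.43 ± 0.11 (adjusted p = 0.0196), and −0.77 ± 0.11 (adjusted p = 8.29e-05) in the order CGN-KO, CGNL1-KO, and double-KO. Both single KO calls of *IFI44L* were lost without WT 1, and the CGN-KO call also without CGN-KO 2 and without CGN-KO 3. *SAMD9L*, an antiviral factor that limits translation, was at 411, 364, and 385 CPM in WT and 328, 271, and 307 CPM in CGN-KO libraries. In CGNL1-KO it was at 344, 306, and 362 CPM and in double-KO at 254, 280, and 246 CPM. *SAMD9L* fell by 0.36 ± 0.08 (adjusted p = 0.00394) in CGN-KO and by 0.57 ± 0.08 (adjusted p = 5.79e-05) in double-KO cells, and in CGNL1-KO cells it differed by −0.20 (adjusted p = 0.135). Of the remaining effectors, *IFI44* and *IFI35* fell in double-KO cells, by 0.65 and 0.71, and were called in neither single KO line. *BST2* (tetherin), which holds budding virions at the cell surface, was called in no line against WT.

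Antigen processing genes did not move as a group in the CGN-KO and double-KO lines. Of 6 tested, 2 were lower and 1 higher both in the CGN-KO and in the double-KO line, and 0 were called for CGNL1-KO. The 6 CGNL1-KO differences all lay above 0, from 0.05 to 0.25, with a median of 0.12, where 50.8% of all genes lay below 0. *TAP1*, a subunit of the transporter that carries peptides into the endoplasmic reticulum, was at 65.0, 64.9, and 60.8 CPM in WT and 52.9, 53.5, and 55.8 CPM in CGN-KO libraries. It was at 65.1, 64.3, and 67.8 CPM in CGNL1-KO and 53.9, 53.1, and 51.6 CPM in double-KO libraries. The CGN-KO and double-KO libraries were below all WT and CGNL1-KO libraries. *TAP1* fell by 0.23 ± 0.05 (limma adjusted p = 0.00613) and by 0.26 ± 0.05 (adjusted p = 0.00181) in these lines. *PSMB10*, a catalytic subunit of the immunoproteasome, fell by 0.27 (adjusted p = 0.0269) and 0.31 (adjusted p = 0.00943) in CGN-KO and double-KO cells.

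*TAPBP* (tapasin), which loads peptides on MHC class I, rose by 0.15 in CGN-KO (limma adjusted p = 0.0434) and by 0.17 in double-KO cells (adjusted p = 0.0209). Both calls were lost without WT 2 and without WT 3. The CGN-KO call was also lost without CGN-KO 1, CGN-KO 3, CGNL1-KO 3, or any double-KO library and with only the genotypes compared, and the double-KO call without double-KO 2 or double-KO 3. *PSMB9*, *TAP2*, and *B2M*, the light chain of MHC class I, were called in no line. *PSMB8*, the member below the filter, was at 0.76 to 1.27 CPM in WT and 0.20 to 0.93 CPM in the KO libraries. Tested without the filter, it was lower in CGN-KO (−0.53, adjusted p = 0.0235) and double-KO cells (−0.66, adjusted p = 0.00505), and in CGNL1-KO cells it was at −0.44 (adjusted p = 0.0948). *TAP2*, *PSMB8*, *TAP1*, and *PSMB9* follow each other in the genome without another measured gene between them.

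*CXCL10*, the chemokine that draws T cells through CXCR3, was the member whose differences had opposite signs and passed the test in both directions. It was at 1.65, 1.77, and 2.05 CPM in WT and at 1.75, 1.63, and 1.42 CPM in CGN-KO libraries. It reached 5.28, 3.34, and 2.89 CPM in CGNL1-KO libraries and was at 0.53, 0.97, and 0.61 CPM in double-KO libraries. The CGNL1-KO libraries were above and the double-KO libraries below all others. The difference was 0.75 ± 0.17 (SE, limma adjusted p = 0.00748) in CGNL1-KO and −0.74 ± 0.17 (adjusted p = 0.00352) in double-KO cells. These values rest on 11 to 91 reads per library. At this low level the pseudocount of 1 shrinks the value, and edgeR on the recovered reads gave a log2 difference of 1.05 (adjusted p = 0.00911) and −1.41 (adjusted p = 0.00299).

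The KO lines were also compared with each other in the same fit. Between the single KO lines 7 members differed, and all were lower in CGN-KO than in CGNL1-KO cells, where 2.09% of all genes were lower. They were *CXCL10* (−0.87 ± 0.17, limma adjusted p = 0.00429), *IFIT3* (−0.49 ± 0.08, adjusted p = 0.00169), *IRF1* (−0.47 ± 0.05, adjusted p = 4.35e-05), *CMPK2* (−0.38), *PSMB10* (−0.33), *TAP1* (−0.28), and *SP110* (−0.24). The median over the 40 members was −0.04. The count was 4 without CGNL1-KO 3, and with the replicate number as a block it was 10, with 9 lower and 1 higher.

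Against the CGN-KO line, 12 members were lower in double-KO cells and 0 higher, where 3.91% of all genes were lower. *MX2* (−0.94 ± 0.15, limma adjusted p = 0.00101) and *MX1* (−0.77 ± 0.11, adjusted p = 0.000434) had the largest differences of the members called. The others were *IFI35*, *CXCL10*, *BST2*, *IFI44*, *USP18*, *ISG15*, *RSAD2*, *OAS1*, *PARP9*, and *OAS3*, from −0.64 to −0.25. This count rested on single libraries: it was 2 without CGN-KO 1, 3 without CGN-KO 3, 2 without the unnumbered double-KO library, and 2 without double-KO 3. It was 8 without WT 3 and 5 with the replicate block.

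Against the CGNL1-KO line, 21 members were lower in double-KO cells and 0 higher, where 6.29% of all genes were lower. *CXCL10* was the member past 2-fold (−1.48 ± 0.17, limma adjusted p = 1.88e-05), where 0.482% of all genes were called at least 2-fold lower. *MX2* (−0.87 ± 0.15), *IRF1* (−0.57 ± 0.05, adjusted p = 3.14e-06), *CMPK2* (−0.52 ± 0.09), and *MX1* (−0.51 ± 0.11) were among the others. The median over the 40 members was −0.30, and 39 lay below 0. Left-out libraries moved the count between 14 and 25, with 14 without CGNL1-KO 3 and 14 without the unnumbered double-KO library.

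Further genes of the pathway were taken from 4 lists. Of 25 tested genes for interferon ligands, receptors, sensors, and signalling (38 listed), the CGN-KO line had 4 higher and 0 lower, the CGNL1-KO line 1 and 1, and the double-KO line 1 and 2. Among all genes the shares were 11.2% higher and 7.87% lower for CGN-KO, 6.81% and 3.49% for CGNL1-KO, and 14.8% and 11.5% for double-KO. With the replicate block the list's counts were 5 and 3, 2 and 2, and 3 and 2. The double-KO count of 3 was at most 1 without WT 2, WT 3, double-KO 2, or double-KO 3, 5 without CGNL1-KO 1, and 7 (2 higher, 5 lower) with only the genotypes compared. The CGN-KO count was 7 without CGNL1-KO 1, and that of CGNL1-KO was 1 without WT 1. The receptor genes *IFNAR1* and *IFNAR2* were not analysed here. *JAK1*, the kinase shared by the interferon receptors, lay between −0.03 and 0.07 in the 3 lines and was named after its values were seen.

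Among 34 tested further interferon-induced effectors (56 listed), the double-KO line had 14 lower and 2 higher, the CGN-KO line 10 and 1, and the CGNL1-KO line 2 and 2. Of all genes, 11.5% were lower and 14.8% higher for double-KO, 7.87% and 11.2% for CGN-KO, and 3.49% and 6.81% for CGNL1-KO. The CGN-KO count of 11 was 6 without CGN-KO 2 and 7 without CGN-KO 3, and the block gave 5 lower and 5 higher in CGNL1-KO cells. *DDX60*, a helicase linked to RIG-I signalling, had 20.2 to 23.9 CPM in WT, 6.86 to 9.43 in CGN-KO, 11.1 to 14.2 in CGNL1-KO, and 4.14 to 6.996 CPM in double-KO libraries. All KO libraries were below WT. It fell by 1.40 (limma adjusted p = 6.05e-06), 0.74 (adjusted p = 0.0043), and 1.91 (adjusted p = 1.9e-07) in CGN-KO, CGNL1-KO, and double-KO cells. *ISG20*, an RNA exonuclease, fell by 1.23 in CGN-KO (adjusted p = 2.86e-05) and by 1.38 in double-KO cells (adjusted p = 6.43e-06), and in CGNL1-KO cells it was at −0.42 (adjusted p = 0.0995), a difference that passed with the block. *GBP5*, a guanylate-binding protein induced by interferon gamma, was at 2.20 to 3.15 CPM in WT, 0.44 to 0.59 in CGN-KO, 2.89 to 5.86 in CGNL1-KO, and 0.28 to 0.53 CPM in double-KO libraries. It fell by 1.21 in CGN-KO (adjusted p = 0.000141) and by 1.32 in double-KO cells (adjusted p = 4.71e-05). In CGNL1-KO cells its difference from WT was 0.53 (adjusted p = 0.0713), which passed with the block and without CGNL1-KO 2. CGN-KO was lower than CGNL1-KO by 1.74 (adjusted p = 1.55e-05).

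Of 28 tested further antigen processing and presentation genes (35 listed), 15 were higher and 1 lower in CGNL1-KO cells, 12 and 4 in CGN-KO cells, and 10 and 4 in double-KO cells. Among all genes too, more were higher than lower in each line, by the shares given above. The CGNL1-KO count of 16 was 10 without WT 3, 8 without CGNL1-KO 3, and 8 with only the genotypes compared. The genes of this list past a 2-fold difference from WT belong to MHC class II. *DLA-DMB*, a subunit of the dog class II peptide exchanger, was at 12.8 to 14.6 CPM in WT, 52.1 to 65.5 in CGN-KO, 32.7 to 37.5 in CGNL1-KO, and 26.7 to 28.2 CPM in double-KO libraries, with no overlap between genotypes. It rose by 2.02 (limma adjusted p = 1.42e-10), 1.34 (adjusted p = 3.93e-08), and 0.98 (adjusted p = 5.1e-07). *DLA-DRA*, the class II alpha chain, rose by 1.53, 1.06, and 0.71, and *DLA-DMA* by 1.23, 0.80, and 0.61, in the same order of lines. *PSMB9*, not called in any line, lies directly beside *DLA-DMB* in the genome.

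*CIITA*, the class II transactivator, and *CD74*, the invariant chain, were named after their values were seen. *CIITA* was at 11.5 to 13.8 CPM in WT and 17.9 to 25.1 CPM in the KO libraries, and it rose by 0.81, 0.83, and 0.56 in the 3 lines (largest limma adjusted p = 0.000205). *CD74* rose by 0.90, 0.54, and 0.92. *NLRC5*, the matching transactivator of MHC class I genes, fell by 0.56 (limma adjusted p = 0.0144), 0.55 (adjusted p = 0.0251), and 0.77 (adjusted p = 0.00109), from 1.05 to 1.67 CPM in WT to 0.34 to 0.80 CPM in the KO libraries. Its CGNL1-KO call was lost without WT 1, WT 3, or CGNL1-KO 2, with only the genotypes compared, and with DESeq2, whose log2 difference was −1.18. Its CGN-KO call was lost without WT 3. The class I genes *DLA-64* and *DLA-12*, also named after their values were seen, did not fall with *NLRC5*. *DLA-64* rose by 0.21 in CGN-KO (limma adjusted p = 0.0156) and 0.31 in CGNL1-KO cells (adjusted p = 0.00199). *DLA-12* rose by 0.28 in CGNL1-KO cells (limma adjusted p = 0.0216). The other differences from WT, 0.08 for *DLA-64* in double-KO and 0.13 and 0.06 for *DLA-12* in CGN-KO and double-KO cells, were not called. The leukocyte markers with values, whose cells also express class II, are given above, and *CD68*, *CD14*, and *CORO1A* together reached at most 20.1 CPM.

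**Figure D5:**
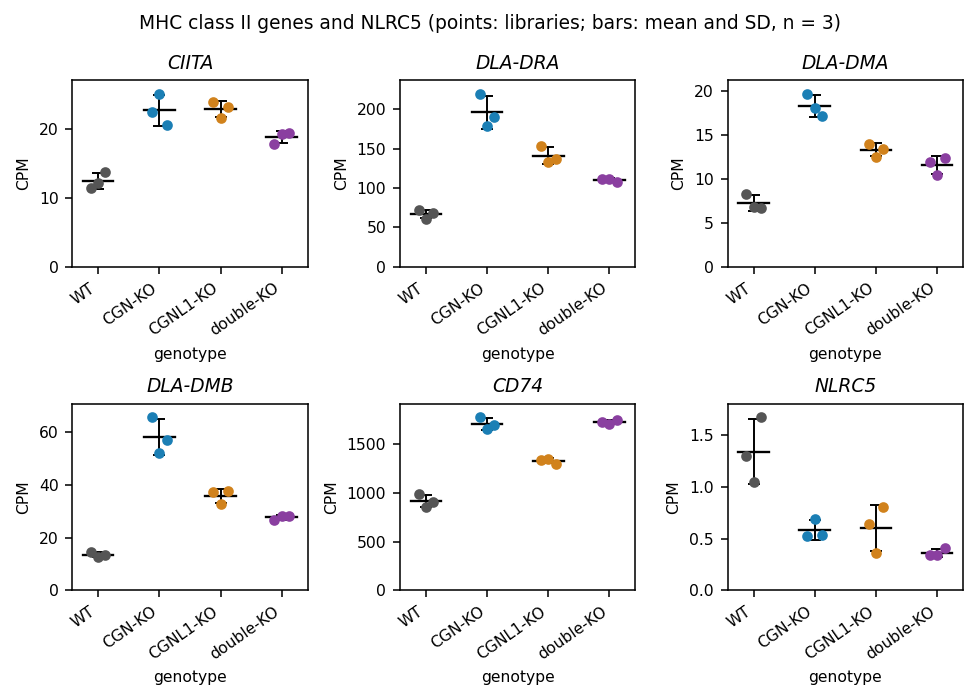
CPM of *CIITA*, *DLA-DRA*, *DLA-DMA*, *DLA-DMB*, *CD74*, and *NLRC5* in each library (points) with the mean and SD of the 3 libraries per genotype (bars). The 5 class II genes are lowest in WT, where *DLA-DMB* is at 12.8 to 14.6 CPM, and *NLRC5* is highest in WT.

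Around *IDO1*, 11 genes of tryptophan metabolism and targets of the kynurenine-activated receptor AHR were tested (24 listed). The CGN-KO line had 5 higher and 3 lower, the double-KO line 3 and 3, and the CGNL1-KO line 3 and 0. Of all genes, 11.2% were higher and 7.87% lower for CGN-KO, 14.8% and 11.5% for double-KO, and 6.81% and 3.49% for CGNL1-KO. Without WT 2 the CGN-KO count was 5 and the CGNL1-KO count 1, and with only the genotypes compared the CGNL1-KO count was also 1. *IDO2*, the related enzyme that lies close to *IDO1* with 1 measured gene between them, fell by 0.29 in CGN-KO (limma adjusted p = 0.038) and by 0.39 in double-KO cells (adjusted p = 0.00501), and was at −0.14 (adjusted p = 0.429) in CGNL1-KO cells, where *IDO1* was highest. *CYP1A1*, a classical AHR target, rose by 0.80 in CGN-KO (adjusted p = 0.00216) and by 1.33 in double-KO cells (adjusted p = 1.65e-05). In CGNL1-KO cells *CYP1A1* was at 1.62 to 2.38 CPM, overlapping the WT range of 1.88 to 2.71 CPM (−0.12, adjusted p = 0.739). Other AHR targets, named after their values were seen, rose in that line, with *NQO1* at 0.72 (limma adjusted p = 0.00198), *CYP1B1* at 0.35 (adjusted p = 0.0231), and *TIPARP* at 0.30 (adjusted p = 0.0125). They also rose in CGN-KO cells, where *IDO1* rose least, by 0.43 (limma adjusted p = 0.0315), 0.40 (adjusted p = 0.00706), and 0.53 (adjusted p = 6.31e-05). In double-KO cells *TIPARP* rose by 0.28 (limma adjusted p = 0.00822). *NQO1* at 0.33 (adjusted p = 0.0775) and *CYP1B1* at −0.16 (adjusted p = 0.227) were not called there. *IDO2* was named after its values were seen, and its CGN-KO call was lost in 6 of 12 fits that each left out 1 library.

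For the double-KO line, the median log2 difference over genes was 0.20, 0.30, and 0.14 on the chromosomes of *MYH14*, *CTNND1*, and *MYL9*, and 0 of the 40 members lie there. In the same order the medians were 0.00, 0.09, and 0.19 for CGN-KO and 0.00, 0.05, and 0.20 for CGNL1-KO cells. Of the signalling list, *JAK2*, *IFNGR1*, and *IRF3* lie on the chromosome of *MYH14*. Members of the IFIT, MX, OAS, and DLA families resemble each other, and the spans of *PARP9* and *DTX3L* overlap, so the counting could split or share their reads.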

How the data were processed

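The authors aligned single reads of stranded mRNA libraries with STAR 2.7.0f to CanFam3.1 and counted them per gene with HTSeq 0.9.1 (versions from the submitters' processing notes). They deposited normalized counts in CPM, treated here as a signal, because they are scaled by edgeR TMM factors. The annotation release and the strand setting of the counting are not given in the sources used here. Each deposited signal value was a whole number of reads within 0.01 (100% of values), so reads and library totals over the listed genes were recovered.

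Genes needed a level above 1 CPM in 3 or more libraries, which 12650 met. They were fitted by limma-trend (limma 3.58.1, R 4.3.3) to log2(CPM + 1) values of all 4 genotypes together, with Benjamini-Hochberg adjustment over all genes and a call at adjusted p below 0.05. A pseudocount of 1 understates the change of low genes. edgeR 4.0.16 and DESeq2 1.42.0 were run on the recovered reads as alternatives. The other alternatives were a pseudocount of 0.1, no filter, library totals without TMM, only the genotypes compared, a replicate block, and each library left out. Steps were tested on simulated data.

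The members and gene lists were chosen with earlier results of these data known. Values in every library are given for *IDO1*, for members past 2-fold in any comparison, and for the 12 members with the smallest F test p. Pathway genes past 2-fold against WT are named, with *NLRC5*. A few items of the lists are not reported here and were left out of their counts and sums. All 42 members with values were found in the RefSeq gene table of the assembly UU_Cfam_GSD_1.0, which was used for names and gene order only, because the build differs. A planned promoter search was not run, and no sequences were used here.

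The column of 1 double-KO library carries no replicate number, and that library is called unnumbered. Libraries of the single KO lines with 1 number deviated from their group means together, with correlations of 0.179 to 0.632 across genes in 3 of 3 pairs. Correlations between libraries with different numbers were not computed, so whether the numbers pair these libraries was not tested. The labels do not state a pairing. Pairs with WT or double-KO libraries did not all correlate.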

Additional observations from a re-analysis of the deposited data

Results flagged for a closer look

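The direct comparisons between KO lines showed members whose difference from WT was not the same in the lines (limma, adjusted p below 0.05 for the difference itself). This held for 7 of 40 members between CGN-KO and CGNL1-KO cells, for 12 between double-KO and CGN-KO cells, and for 21 between double-KO and CGNL1-KO cells. Every one of these was lower in the line named first.

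Between the single KO lines the log2 differences, CGN-KO minus CGNL1-KO, were −0.87 for *CXCL10*, −0.49 for *IFIT3*, −0.47 for *IRF1*, −0.38 for *CMPK2*, −0.33 for *PSMB10*, −0.28 for *TAP1*, and −0.24 for *SP110*. *IDO1*, which chose the list, was lower by 1.41 in the same direction, at 131 to 218 CPM in CGN-KO against 288 to 634 CPM in CGNL1-KO libraries.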

How the results depend on the processing

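Counts of members called stayed within 1.5 times with edgeR, DESeq2, a pseudocount of 0.1, no filter, library totals without TMM, and only the genotypes compared (no such fit was made for the F test). With the replicate block, the count went from 8 to 15 for CGNL1-KO against WT and from 12 to 5 for double-KO against CGN-KO. It was 21 for CGN-KO and 27 for double-KO against WT, 10 for CGN-KO against CGNL1-KO, 18 for double-KO against CGNL1-KO, and 30 for the F test. The unnumbered library stands alone in its block and so adds nothing there.

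With each library left out in turn, counts ranged from 8 to 18 (CGN-KO against WT), 6 to 9 (CGNL1-KO against WT), 25 to 30 (double-KO against WT), 4 to 7 (CGN-KO against CGNL1-KO), 2 to 15 (double-KO against CGN-KO), 14 to 25 (double-KO against CGNL1-KO), and 23 to 32 (F test). Fewer libraries enter these fits.

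Of 49 called differences of the members named with values, 0 changed sign, and 12 lost their call in at least 1 fit without a library. These were in *CMPK2*, *CXCL10*, *RSAD2*, *OAS3*, *DDX58*, and *IFI44L*. The block ended 4 of the 49 calls, 3 of them in double-KO against CGN-KO (*CXCL10*, *RSAD2*, *OAS3*) and 1 against CGNL1-KO (*IFI44L*). edgeR ended 1 and library totals 1, both *IFI44L* in double-KO against CGNL1-KO cells. A fit of only the genotypes compared ended 2, *OAS3* in CGNL1-KO against WT and *IFI44L* in double-KO against CGNL1-KO.

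*DDX60*, *ISG20*, *GBP5*, *DLA-DMB*, *DLA-DRA*, *DLA-DMA*, *CYP1A1*, *NLRC5*, *CIITA*, *CD74*, and *IDO2* were put through the same alternatives after their values were seen. These fits, and those of the list counts, covered only comparisons with WT. 0 of the called differences of these genes changed sign. Calls of *NLRC5* and *IDO2* were lost in some fits without a library. That of *NLRC5* in CGNL1-KO cells was also lost with DESeq2 and with only the genotypes compared. Calls of other pathway genes, among them *NQO1*, *CYP1B1*, *TIPARP*, *TYK2*, *DLA-64*, and *DLA-12*, were not put through them. Neither were differences of pathway genes between KO lines, such as those of *GBP5* and *IFNGR1*.

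With 3 libraries of 1 clone per genotype, small differences of low genes such as *HERC5*, *OASL*, and *PSMB8* could not be resolved well at this depth.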
